A study of Homo sapiens with 10 samples.

Results

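The regulators described here are 10 RNA-binding proteins that set tissue-specific exon choice: the epithelial regulators ESRP1 and ESRP2, the repressors PTBP1 and PTBP2, and the neural regulators RBFOX1, RBFOX2, RBFOX3, NOVA1, NOVA2 and SRRM4. They were chosen by name, and each has 1 row among the 31017 genes of the count table. The HindIII fragment that holds the gene start was a captured promoter, or bait, for 8 of the 10, among 18038 baits that hold a gene start and 21833 baits in all. RNA-seq and Promoter Capture Hi-C (PCHi-C) data were analysed for human H9 embryonic stem cells (ESCs), an established line kept in Pluripro medium and matrix, and for neuroectodermal cells (NECs) derived from the same line and collected on day 7. Each assay had 2 biological replicates of each cell type, with no genetic change in either. Both cell types come from 1 line, so nothing here speaks of variation between lines.

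Alternative splicing joins different exons of a gene into different mRNAs, and RNA-binding regulators decide much of this choice by binding near an exon and either promoting or blocking its use. ESRP1 and ESRP2 maintain epithelial exon patterns and are switched off as cells become mesenchymal. PTBP1 blocks many neuronal exons in non-neural cells and gives way to its paralogue PTBP2 as neural progenitors become neurons, while RBFOX, NOVA and SRRM4 proteins promote exons used in neurons, SRRM4 very short ones in particular.

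Across the whole set, 2 regulators were called higher in NECs (RBFOX1 and NOVA2) and 2 lower (ESRP1 and ESRP2), where a call needed a log2 fold change beyond 1.5 in either direction together with an adjusted p below 0.05, the thresholds of the study. Of the 17564 genes tested, 21.0% were called, 11.4% as higher and 9.68% as lower. By adjusted p alone, 5 regulators were higher in NECs and 3 were lower, against 31.5% and 29.7% of all tested genes (61.1% together). The library values of the cell types did not overlap for 9 of the 10 regulators, as for 83.8% of all tested genes. The median log2 fold change was 0.24 over the 10 regulators and 0.01 over all tested genes. PTBP2 and RBFOX3 did not reach an adjusted p of 0.05.

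The 4 RNA-seq libraries held between 19234087 and 25356382 counts. Replicates of a cell type correlated closely (Spearman's rho across genes of 0.994 for ESCs and 0.991 for NECs). All 10 neuroectodermal marker genes were called higher in NECs and 9 of 10 pluripotency markers lower. The NEC replicates were not alike in all markers: pluripotency markers summed to 1084 and 1670 CPM (counts scaled to the normalized library size) and neural crest markers to 271.7 and 131.1 CPM in replicates 1 and 2. In ESCs, mesendoderm markers summed to 93.6 and 223.7 CPM. The ESC libraries shared a sequencing lane and the NEC libraries shared another, which means that lane and cell type cannot be told apart. In bulk RNA, fewer cells of a type and less RNA per cell cannot be told apart either, which applies to every change given here.

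**Figure D1:**
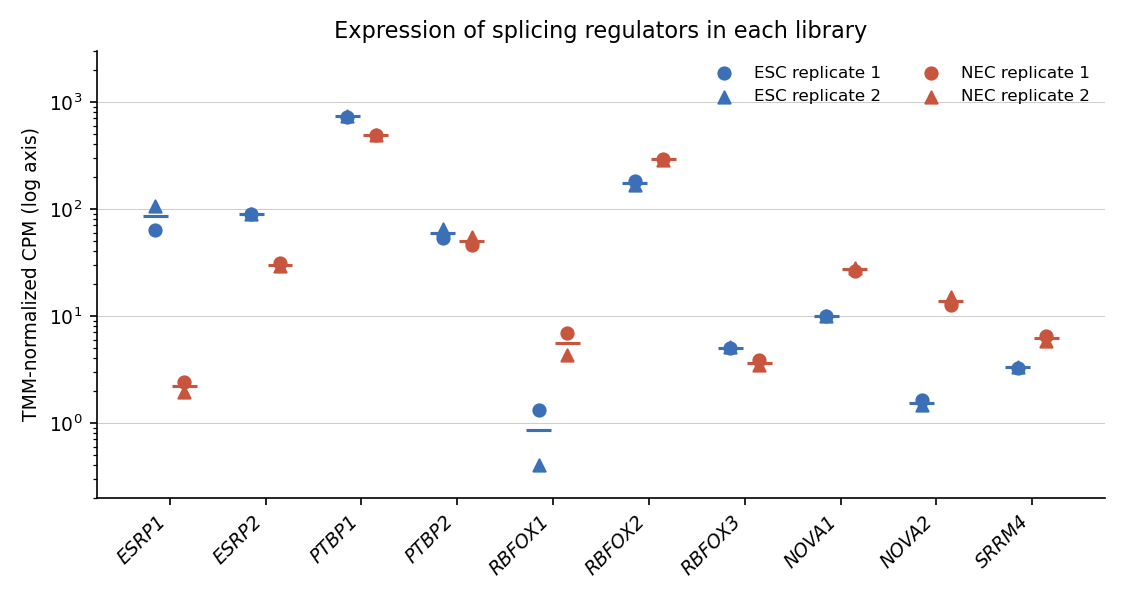
TMM-normalized CPM (log axis) of the 10 splicing regulators in each of the 4 RNA-seq libraries. Circles are replicate 1, triangles replicate 2 and horizontal lines the mean of the 2 replicates. ESC and NEC points lie apart for every regulator except PTBP2, and the widest gap is that of ESRP1, from a mean of 85.7 CPM in ESCs to 2.19 CPM in NECs.

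ESRP1, which drives inclusion of epithelial exons, showed the largest change of the set. Its level was 64.0 and 107.4 CPM in ESCs, against 2.43 and 1.95 CPM in NECs. Every NEC value lay far below both ESC values, although the ESC replicates themselves differed in proportion by more than those of any regulator other than RBFOX1. In the edgeR quasi-likelihood test ESRP1 fell by 5.30 on the log2 scale (SE 0.31, adjusted p = 5.63e-05), a 39.3-fold lower level, and only 1.48% of tested genes had a log2 fold change as low or lower. ESC replicate 2, where ESRP1 was higher, also had more of the mesendoderm markers, with EOMES at 15.3 and 45.8 CPM in replicates 1 and 2; none of the 10 mesendoderm markers was at 0 in any library, and their part in the ESRP1 values was not tested.

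ESRP2, the paralogue of ESRP1 with an overlapping set of target exons, fell less. It was at 90.1 and 89.1 CPM in ESCs and at 30.9 and 29.1 CPM in NECs, so that the replicates of each cell type nearly coincided. The log2 fold change was -1.58 (SE 0.09, adjusted p = 5.25e-05). ESRP2 overlaps NFATC3, which is transcribed from the opposite strand, and reads were counted without regard to strand, so reads in the overlap cannot be assigned. NFATC3 itself was at 66.1 and 68.9 CPM in ESCs and 76.4 and 72.3 CPM in NECs.

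The unequal fall left the ESRP family with a different makeup. Per kilobase of exon, ESRP1 made up 43.1% and 56.2% of the summed ESRP level in ESCs, but 7.74% and 6.65% of it in NECs. The mean share was 49.6% ± 9.27 (SD, n = 2) in ESCs and 7.19% ± 0.771 in NECs. The log2 ratio of ESRP1 to ESRP2 was 3.67 lower in NECs, which exceeded the larger replicate SD of 0.54. ESRP2 thus remained at 5.78 ± 0.244 CPM per kilobase in NECs while ESRP1 was at 0.449 ± 0.0706.

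PTBP1, the broadly expressed repressor of neuronal exons, was the most abundant of the 10 per kilobase in both cell types. It stood at 728.8 and 730.2 CPM in ESCs and at 494.8 and 494.1 CPM in NECs. The groups were clearly apart, with replicate SDs of 0.980 CPM in ESCs and 0.547 CPM in NECs. PTBP1 fell by 0.56 on the log2 scale (SE 0.10, adjusted p = 0.00311), well short of the fold threshold.

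PTBP2, the neuronal paralogue, was not called. Its values of 53.1 and 65.0 CPM in ESCs and 45.4 and 54.3 CPM in NECs overlapped, with the higher NEC value above the lower ESC one. The log2 fold change of -0.24 (SE 0.14, adjusted p = 0.164) did not pass the test. PTBP2 accounted for 2.94% ± 0.400 of the PTBP1 and PTBP2 level per kilobase in ESCs and 3.63% ± 0.442 in NECs. These shares depend on the annotated exon lengths, 20122 bp for PTBP2 against 7521 bp for PTBP1. Before division by length, mean PTBP2 and PTBP1 levels were 59.05 and 729.5 CPM in ESCs, and 49.86 and 494.4 CPM in NECs. The log2 ratio of PTBP1 to PTBP2 was 0.32 lower in NECs, against a larger replicate SD of 0.20.

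The 3 RBFOX paralogues, which bind the same short motif in introns next to regulated exons, had separate outcomes in the test. RBFOX2, the widely expressed member, was at 183.9 and 167.3 CPM in ESCs and at 292.6 and 287.6 CPM in NECs. Both NEC values lay above both ESC values, and RBFOX2 rose by 0.72 on the log2 scale (SE 0.09, adjusted p = 0.00092). It held 96.2% ± 0.0513 of the RBFOX level per kilobase in ESCs and 97.0% ± 0.522 in NECs.

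RBFOX1, typical of neurons and muscle, was counted 25 and 10 times in the ESC libraries and 147 and 107 times in the NEC libraries. These counts correspond to 1.32 and 0.405 CPM in ESCs and 6.88 and 4.34 CPM in NECs. The groups did not overlap, but in proportion the replicates of each cell type differed by more than those of the other neural regulators. The log2 fold change of 2.74 (SE 0.52, adjusted p = 0.0044) was accordingly the least precise of the 10. Even after this rise, RBFOX1 had the lowest mean of the 10 per kilobase in NECs, at 0.356 ± 0.114 CPM per kilobase. It was not separated from RBFOX3, since RBFOX1 was at 0.437 and RBFOX3 at 0.389 in NEC replicate 1. Without division by exon length, the NEC mean of RBFOX1 (5.61 CPM) lay above those of RBFOX3 (3.66) and ESRP1 (2.19). NEC replicate 1, with more RBFOX1, also had more of the neural crest marker SOX10 (18.4 CPM against 0.689 in replicate 2), and TFAP2B of the same list was at 0 in both ESC libraries. Neuroectodermal markers were likewise higher there, with sums of 1074 and 673.1 CPM in NEC replicates 1 and 2, as were the neuron markers STMN2 (26.9 and 9.28 CPM) and ELAVL4 (8.70 and 3.36 CPM), although the neuron list as a whole summed to 378.9 and 363.3 CPM. The part of these markers in the RBFOX1 values was not tested.

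RBFOX3, known as the neuronal nuclear antigen NeuN of post-mitotic neurons, was at 4.98 and 5.14 CPM in ESCs and 3.84 and 3.49 CPM in NECs. The NEC values lay below the ESC values, but the log2 fold change of -0.47 (SE 0.22, adjusted p = 0.102) did not pass the test. Among the 10 post-mitotic neuron markers examined, RBFOX3 included, 5 were called higher in NECs and none lower. Of all tested genes, 11.4% were called higher and 9.68% lower. The summed level of these markers ranged from 298.4 to 312.7 CPM in ESCs and from 363.3 to 378.9 CPM in NECs. No marker of that list was at 0 in any library.

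NOVA1 and NOVA2, neuronal proteins that bind YCAY motifs, both rose. NOVA2 had 1.64 and 1.46 CPM in ESCs and 12.6 and 14.96 CPM in NECs. Its log2 fold change of 3.15 (SE 0.22, adjusted p = 9.64e-05) was the largest increase of the set. NOVA1 started higher, at 10.01 and 10.07 CPM in ESCs, and reached 26.2 and 28.2 CPM in NECs. Its log2 fold change of 1.44 (SE 0.12, adjusted p = 0.000215) passed the adjusted p and stayed under the fold threshold. NOVA1 and ESRP2 were the members nearest to that threshold, each within 1 SE of it on opposite sides.

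The NOVA pair therefore also changed in proportion. NOVA2 made up 15.6% and 14.0% of the NOVA level per kilobase in ESCs, and 35.1% and 37.4% of it in NECs. The log2 ratio of NOVA2 to NOVA1 was 1.71 higher in NECs, with a larger replicate SD of 0.13. NOVA1 was still the more abundant of the pair in every library.

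SRRM4, the activator of neuronal microexons, was at 3.23 and 3.36 CPM in ESCs and 6.50 and 5.84 CPM in NECs. Both NEC values lay above both ESC values. SRRM4 rose by 0.90 on the log2 scale (SE 0.21, adjusted p = 0.0104), below the fold threshold. Without ESC replicate 1 the adjusted p was 0.0528, with a log2 fold change of 0.85.

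**Figure D2:**
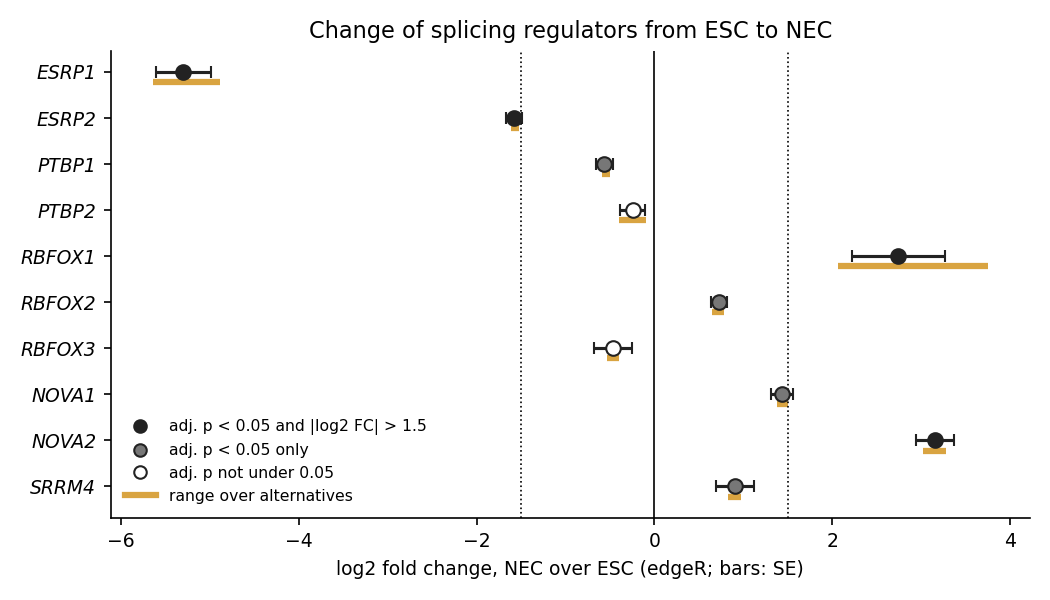
Log2 fold change of each regulator from ESCs to NECs by edgeR (points, with bars of 1 SE; positive values are higher in NECs). Dotted lines mark the fold threshold of 1.5 and ochre bars the range over the alternative analyses. ESRP1, ESRP2, RBFOX1 and NOVA2 lie beyond the lines, NOVA1 just inside, and no range crosses 0.

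Ordered by mean level per kilobase of exon, several regulators changed place between the cell types. ESRP1 ranked 2 in ESCs and 8 in NECs, and NOVA2 ranked 9 and 6. The order depends on the annotated exon lengths, which ran from 4875 bp (ESRP1) to 20122 bp (PTBP2). In ESCs the order began with PTBP1 (97.0 ± 0.132 CPM per kilobase), followed by ESRP1 (17.6 ± 6.29), ESRP2 (17.3 ± 0.131) and RBFOX2 (14.2 ± 0.951). The ESRP1 replicates, at 13.1 and 22.03, spanned the values of both ESRP2 and RBFOX2, so ESRP1 was separated from neither, whereas ESRP2 (17.4 and 17.2) lay above RBFOX2 (14.9 and 13.6). PTBP2, NOVA1, RBFOX3, SRRM4, NOVA2 and RBFOX1 followed in that order, from 2.94 down to 0.0549 CPM per kilobase, with no overlap between neighbours. In NECs PTBP1 was followed by RBFOX2 (23.5 ± 0.286) and ESRP2 (5.78 ± 0.244), and NOVA1 (2.63 ± 0.140) and PTBP2 (2.48 ± 0.310) were not separated. The lowest 4 in NECs were SRRM4, ESRP1, RBFOX3 and RBFOX1, of which neighbours overlapped except RBFOX3 below ESRP1.

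**Figure D3:**
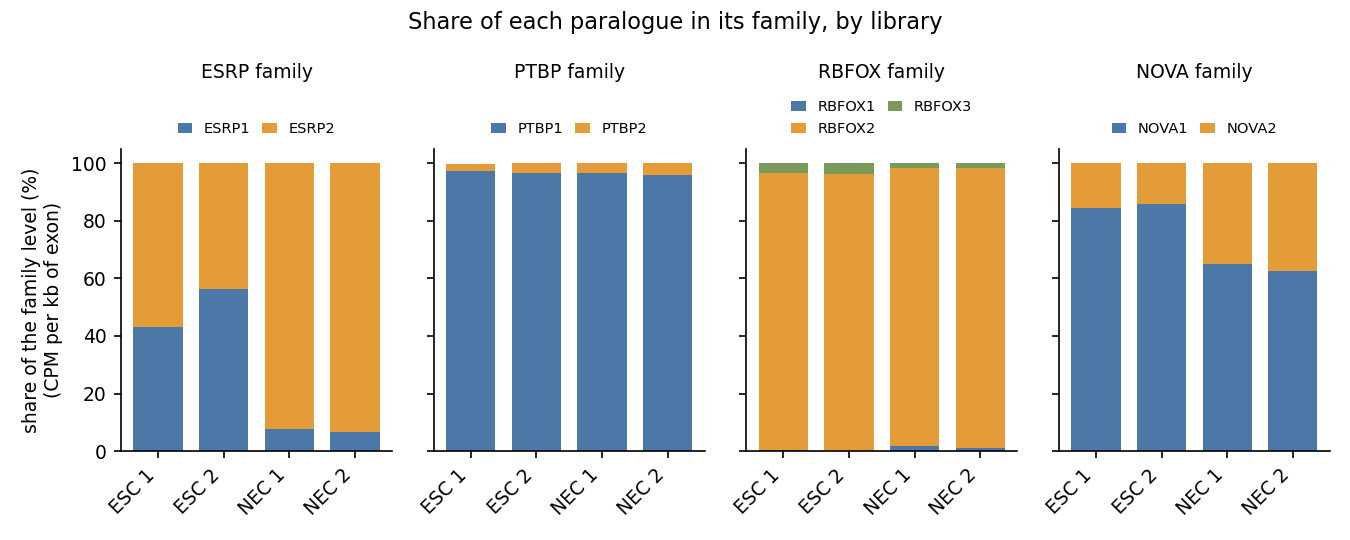
Share (%) of each paralogue in the summed level of its family, in CPM per kilobase of exon, for each RNA-seq library. The ESRP1 share falls from between 43.1% and 56.2% in ESCs to between 6.65% and 7.74% in NECs. The NOVA2 share rises from at most 15.6% to at least 35.1%, and PTBP1 and RBFOX2 hold over 96% of these sums throughout.

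The promoter sequences of RBFOX1, NOVA1, NOVA2 and SRRM4, all higher in NECs by adjusted p, are shown because the fragments that hold them served as PCHi-C baits and their CG content can be read directly. The windows run from 250 bases before to 50 bases after a RefSeq transcript start (table build GRCh38.p14), read on the strand of the gene, and each was found once in GRCh37, inside its bait. They lie at chr16:6068775-6069074 (RBFOX1, plus strand), chr14:27067190-27067489 (NOVA1, minus strand), chr19:46477074-46477373 (NOVA2, minus strand) and chr12:119419096-119419395 (SRRM4, plus strand). RBFOX2 was also higher in NECs by adjusted p and had a bait, but no RefSeq window was available for it, nor for ESRP1 and ESRP2. Capitals mark CG dinucleotides.
RBFOX1: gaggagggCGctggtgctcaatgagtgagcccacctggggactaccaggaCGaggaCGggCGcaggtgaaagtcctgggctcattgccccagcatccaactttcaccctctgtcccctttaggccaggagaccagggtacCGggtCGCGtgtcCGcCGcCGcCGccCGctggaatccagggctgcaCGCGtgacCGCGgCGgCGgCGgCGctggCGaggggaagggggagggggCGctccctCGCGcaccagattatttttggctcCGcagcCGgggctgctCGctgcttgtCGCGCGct
NOVA1: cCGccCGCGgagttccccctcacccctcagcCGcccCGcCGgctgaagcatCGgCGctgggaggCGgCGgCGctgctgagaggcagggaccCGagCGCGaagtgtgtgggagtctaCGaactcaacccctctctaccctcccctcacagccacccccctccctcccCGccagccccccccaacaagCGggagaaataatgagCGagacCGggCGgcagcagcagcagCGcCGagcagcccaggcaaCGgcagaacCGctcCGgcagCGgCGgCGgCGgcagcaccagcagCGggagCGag
NOVA2: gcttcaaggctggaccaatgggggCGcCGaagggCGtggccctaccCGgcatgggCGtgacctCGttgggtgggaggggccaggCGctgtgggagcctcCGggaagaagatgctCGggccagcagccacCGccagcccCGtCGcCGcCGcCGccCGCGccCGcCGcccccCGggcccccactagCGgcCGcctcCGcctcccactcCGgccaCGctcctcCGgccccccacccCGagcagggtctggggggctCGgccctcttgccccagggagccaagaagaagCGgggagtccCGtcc
SRRM4: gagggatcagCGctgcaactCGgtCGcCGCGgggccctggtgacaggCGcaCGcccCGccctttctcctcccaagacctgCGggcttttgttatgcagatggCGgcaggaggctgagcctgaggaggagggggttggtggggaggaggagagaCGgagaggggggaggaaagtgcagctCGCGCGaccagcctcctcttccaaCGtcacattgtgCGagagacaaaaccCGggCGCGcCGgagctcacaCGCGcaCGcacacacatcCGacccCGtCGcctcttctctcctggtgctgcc

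The windows shown of RBFOX1 and NOVA2 each held 30 CG dinucleotides in 300 bases, that of NOVA1 31 and that of SRRM4 26. In each bait, the window nearest to the gene start of the count table was taken. The median over 35116 RefSeq promoter windows of the same length was 14, with quartiles of 4 and 28. The windows shown of RBFOX1, NOVA1 and NOVA2 thus lay above the upper quartile and that of SRRM4 below it. Other windows of NOVA1 held 1 and 3 CG dinucleotides, and those of RBFOX1 30, 38, 5 and 5. GC content was 69.3% for RBFOX1, 72.7% for NOVA1, 76.7% for NOVA2 and 66.7% for SRRM4, against a median of 58.7%. RBFOX1 held the letters CAGGTG, the E-box bound by SNAI and ZEB repressors, on either strand at 219 and 188 bases before the start. Such a match was found in 20.6% of all windows and in 5 of the 25 windows of the 7 members with RefSeq windows, all of RBFOX1 or RBFOX3.

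PCHi-C lists the fragments that contact a promoter, called promoter-interacting regions (PIRs), each with a CHiCAGO score of at least 12. The score is a distance-weighted log p-value and carries no replicate error of its own, so the lists of the separate replicates were read beside the merged list of each cell type. The label of the ESC replicate 2 list names more than a single sample and lane, unlike those of the other replicates. The fragments holding the starts of PTBP1 (45310 bp) and RBFOX3 (9774 bp) were neither bait nor PIR in any list, and their contacts were not analysed here. The PTBP2 bait ended 542 bp upstream of the RefSeq window of PTBP2.

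The 8 baits had 25 PIRs in the merged ESC list and 23 in the merged NEC list. Of these, 4 were in both lists, which is 16.0% of the ESC and 17.4% of the NEC PIRs. Over all baits, 44.2% and 44.3% of merged calls were shared. The count of 4 was not stable when the list of a single replicate replaced the merged list of its cell type. It was 2 without ESC replicate 1, 0 without ESC replicate 2, 2 without NEC replicate 1 and 1 without NEC replicate 2. The same replacement over all baits is not given here, so the fall cannot be set against a background. When PIRs within 10 kb counted as shared, 11 of the 25 ESC and 9 of the 23 NEC PIRs were. Of the merged ESC PIRs of the regulators, 2 of 25 (8.0%) were called in both ESC replicates, against 22.9% over all baits, and of the merged NEC PIRs 1 of 23 (4.35%) in both NEC replicates, against 21.1%. Each of these shares was below the background share, and the differences were not tested. No PIR was called in all 4 replicates, where 2.85% of all pairs called in any replicate were.

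ESRP1 had 4 and 2 PIRs in the separate ESC lists and 1 in each NEC list, and 8 against 2 in the merged lists. PTBP2 had 3 in each ESC list, 4 and 7 in the separate NEC lists, and none against 2 in the merged lists. These were the 2 of 8 promoters whose PIR numbers did not overlap between cell types, where 26.3% of all gene-start baits did not overlap. RBFOX1, whose expression rose, had 3 and 7 PIRs in the separate ESC lists, against 4 and 1 in those of NECs. For NOVA2 the numbers were 2 and 0 in ESCs, against 1 and 2 in NECs. Of the 2 in NEC replicate 2, 1 lay 46170 kb away and 1 on chromosome 5, and neither was in the merged NEC list. With 2 replicates against 2, the smallest p an exact two-sided permutation test allows is 0.333, and none was computed.

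At the ESRP1 promoter (chr8:95653226-95655344), 6 of the 8 merged ESC PIRs overlapped ESRP1 itself, between 7.89 and 70.8 kb downstream. Of these 6, 5 were called in no single replicate, and in the separate ESC lists 1 of 4 and 0 of 2 PIRs overlapped the gene. None of the 2 merged NEC PIRs did. The highest-scoring PIR of the merged ESC list, over an ESRP1 exon at chr8:95711379-95718521, scored 14.2 there and 12.4 in replicate 1. The highest NEC PIR lay 425.7 kb downstream in an intron of NDUFAF6 and scored 13.3. A contact with the fragment holding the DPY19L4 start, 82.8 kb downstream, was in both merged lists (14.0 in ESCs and 12.9 in NECs). It scored 15.25 in ESC replicate 2 and was also called from the DPY19L4 bait, at 20.5 in ESC replicate 2 and 12.3 in NEC replicate 1.

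ESRP2 had the replicated contacts that differed between the cell types. Its bait (chr16:68262534-68280544), which also holds the start of PLA2G15, contacted the fragment with the DDX28 and DUS2L starts (chr16:68056220-68061840, 212.5 kb away) in both ESC replicates, at 14.5 and 12.99, and in no NEC list. It contacted an intronic fragment of NFATC3 (chr16:68123164-68125854, 147.0 kb away) in both NEC replicates, at 12.03 and 12.9, and in no ESC list. Over all baits, 4.43% of the pairs called in an ESC replicate were called in both ESC and no NEC replicate, and 4.21% the other way round. For the 8 baits of the regulators it was 1 of 45 pairs and 1 of 43. The 4 replicate scores lay between 12.03 and 14.5, not far above the threshold of 12.

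PTBP2 had 17 PIRs over all lists, none in more than 1 replicate. All lay between 484.5 and 1942 kb from the bait, and 13 overlapped no protein-coding gene. The highest merged score was 12.9, in NECs, for a fragment over RWDD3 at a distance of 1469 kb.

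The PIRs of the RBFOX1 promoter lay mostly in its own long gene, and 10 of the 12 were called in 1 replicate or none. The gene spans chr16:6069095-7763340, so any PIR in that stretch downstream of the bait overlaps it by position alone. Of 12 PIRs over all lists, 10 overlapped RBFOX1 as the count table bounds it, between 353.5 and 641.8 kb downstream of the bait (chr16:6067865-6073363). An intronic fragment at chr16:6619161-6630962, 554.4 kb away, was called in both ESC replicates (12.03 and 12.1) and in NEC replicate 2 (14.01). Another, 463.6 kb away at chr16:6532673-6535780, was called in ESC replicate 1 (12.4) and NEC replicate 1 (12.97) and holds a further RefSeq start window of RBFOX1, at chr16:6533137-6533436. That window held 38 CG dinucleotides and a GC content of 68%. The PIR with the highest merged score lay 574.0 kb away in ESCs (12.6) and 587.2 kb away in NECs (12.4).

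RBFOX2 PIRs lay in different stretches in the merged lists of the cell types, without support from both replicates for any of them. In NECs, 5 of 6 merged PIRs overlapped RBFOX2, 37.6 to 257.4 kb downstream of the bait (chr22:36420336-36427776). In ESCs, none of 5 did, and all lay beyond the end of the gene, 296.6 to 426.6 kb away. A fragment 317.1 kb away was in both merged lists, at 12.04 in ESCs and 12.6 in NECs. The highest scores were 14.0 in NECs, for an intron of RBFOX2 98.4 kb away, and 14.2 in ESCs, for a fragment over MB 401.1 kb away. In the replicates, 0 of 4 and 1 of 3 PIRs overlapped the gene in ESCs, and 3 of 4 and 1 of 3 in NECs. Replicate 2 thus had the same share in both cell types.

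The NOVA2 bait (chr19:46467147-46499114), which also holds the CCDC61 start, had the highest score of the set in NECs. Its contact with an intron of NOVA2, 22.8 kb downstream at chr19:46459570-46461032, scored 19.2 in the merged NEC list and 13.8 in NEC replicate 1, and was in no ESC list. The highest ESC score, 14.3, was for another intronic fragment 34.9 kb away that no single replicate called. A fragment 53.3 kb away was in both merged lists.

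NOVA1 lies in a region without other protein-coding genes, and none of its 13 PIRs overlapped one. They lay 318.8 to 1538 kb from the bait (chr14:27065475-27070233). The PIR at chr14:27388916-27396817, 325.0 kb upstream, had the highest merged NEC score (13.7), was also in the merged ESC list (12.3) and was called in NEC replicate 1. The highest merged ESC score was 13.3, for a fragment 387.8 kb upstream.

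SRRM4 contacts lay at 388.4 to 641.5 kb, outside the gene. The highest merged scores, 12.96 in ESCs and 14.0 in NECs, belonged to adjacent fragments in an intron of CCDC60, 430.3 and 437.3 kb downstream of the bait (chr12:119409291-119422859). A further bait that holds an internal SRRM4 transcript start (chr12:119548317-119560893) gave 2 merged PIRs in ESCs against 7 in NECs. Its separate lists held 0 and 3 for ESCs and 3 each for NECs.

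**Figure D4:**
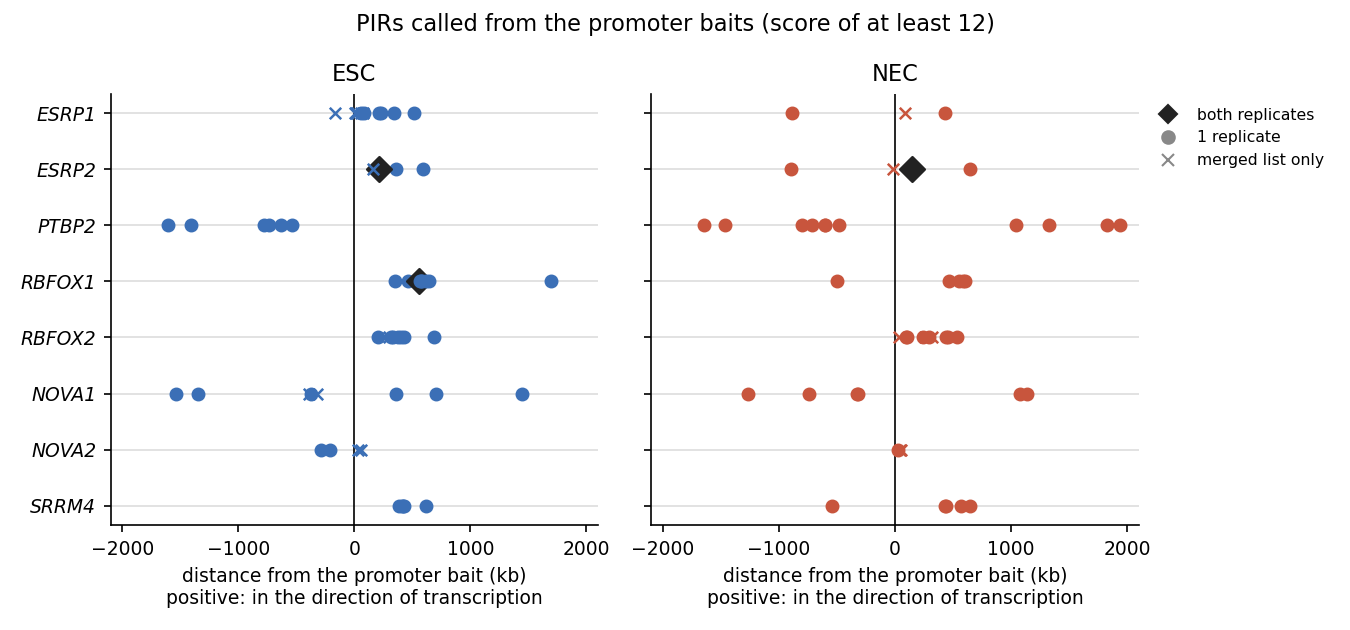
Distance (kb, positive in the direction of transcription) from each promoter bait to its PIRs on the same chromosome, leaving out 1 NOVA2 PIR 46170 kb away, in ESCs (left) and NECs (right). Circles were called in 1 replicate, black diamonds in both and crosses in the merged list alone. Diamonds occur for ESRP2 and RBFOX1 alone, at 147.0, 212.5 and 554.4 kb, and PTBP2 has no PIR within 484.5 kb.

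Of the other tissue-restricted splicing and RNA-binding regulators, 30 of 31 listed were tested, 8 were called higher in NECs and 2 lower, and the list median was 0.23. Over all tested genes, 11.4% were called higher and 9.68% lower. The 4 with the largest changes belong to families known from neurons: the Hu proteins ELAVL3 (log2 fold change 5.22, SE 0.44, adjusted p = 0.000201) and ELAVL4 (5.00, SE 0.65, adjusted p = 0.000967), CELF3 (5.05, SE 0.47, adjusted p = 0.000273) and CELF6 (4.81, SE 0.78, adjusted p = 0.00232). All 4 had at most 8 counts in an ESC library. The 2 genes called lower, named after their values were seen, were RBM47 (-3.79, SE 0.19, adjusted p = 3.627e-05), an epithelial regulator, and RBM20 (-2.47, SE 0.29, adjusted p = 0.000674), which is known from heart muscle. The most abundant not called were LIN28A (-0.69, SE 0.15, adjusted p = 0.00767) and KHDRBS1 (0.01, SE 0.09, adjusted p = 0.948).

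Few general splicing factors passed the fold threshold as well as the adjusted p, where 21.0% of all tested genes were called. None of 15 SR proteins was called by edgeR or by DESeq2, although 8 had an unadjusted p under 0.05 and the same number an adjusted p under 0.05. Over all tested genes, 61.1% had an adjusted p under 0.05. Of those 8, 6 were lower in NECs and 2 higher, and SRSF12, named after its values were seen, had the highest log2 fold change of the list (1.27, SE 0.21, adjusted p = 0.00274). The most abundant were SRRM2 (-0.07, SE 0.11, adjusted p = 0.611) and SRSF1 (-0.70, SE 0.14, adjusted p = 0.00538). Of 24 hnRNP proteins, 1 was called, while by adjusted p alone 6 were higher in NECs and 7 lower. HNRNPA1 had 10274 and 12739 counts in ESCs and 57615 and 60719 in NECs (log2 fold change 2.28, SE 0.13, adjusted p = 5.065e-05), but it has many processed pseudogenes, so its count is uncertain. HNRNPA2B1 (-0.24, SE 0.13, adjusted p = 0.135) and HNRNPC (-0.01, SE 0.11, adjusted p = 0.925) did not pass the test.

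Transcription factors known to control these regulators changed in both directions, with 3 of 12 called higher in NECs and 4 lower, and a list median of -0.70. The shares over all tested genes were 11.4% higher and 9.68% lower. SNAI2 (4.69, SE 0.22, adjusted p = 2.871e-05) and ZEB2 (2.80, SE 0.13, adjusted p = 2.767e-05), repressors of epithelial genes, rose. SNAI1, a repressor of the same family named after its values were seen, was lower in NECs by adjusted p but not called (-0.70, SE 0.25, adjusted p = 0.0495). GRHL2 (-3.30, SE 0.70, adjusted p = 0.0068) and OVOL1 (-3.06, SE 0.55, adjusted p = 0.00343), activators or guardians of epithelial identity, fell. REST, which represses neuronal genes in other cells, SRRM4 among them, was at 97.2 and 108.1 CPM in ESCs and 57.6 and 58.3 CPM in NECs (-0.82, SE 0.09, adjusted p = 0.000572), short of the fold threshold. Its cofactor RCOR1 was not called (0.22, SE 0.09, adjusted p = 0.0793). Of 10 epithelial markers, 7 were called lower in NECs and none higher, with a summed level of 1361 to 1389 CPM in ESCs and 431.0 to 578.9 CPM in NECs; CDH1 fell by 4.07 on the log2 scale, and the part of these genes in the ESRP values was not tested.

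Gene-level counts do not show exon choice. Of 20 genes with exons on which these proteins are known to act, 18 were tested, 1 was called higher in NECs and 1 lower, and the list median was 0.04. Among all tested genes, 11.4% were called higher and 9.68% lower. CD44 fell by 3.07 on the log2 scale (SE 0.18, adjusted p = 5.517e-05) and CACNA1C rose by 1.61 (SE 0.35, adjusted p = 0.0074). FLNA (-0.95, SE 0.16, adjusted p = 0.00291) and PKM (0.04, SE 0.19, adjusted p = 0.873), the most abundant of the list, were not called. FGFR2, the gene of a classic ESRP-dependent exon pair and named after its values were seen, was not called, at a log2 fold change of -0.00065 (edgeR SE 0.18, adjusted p = 0.998).

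**Figure D5:**
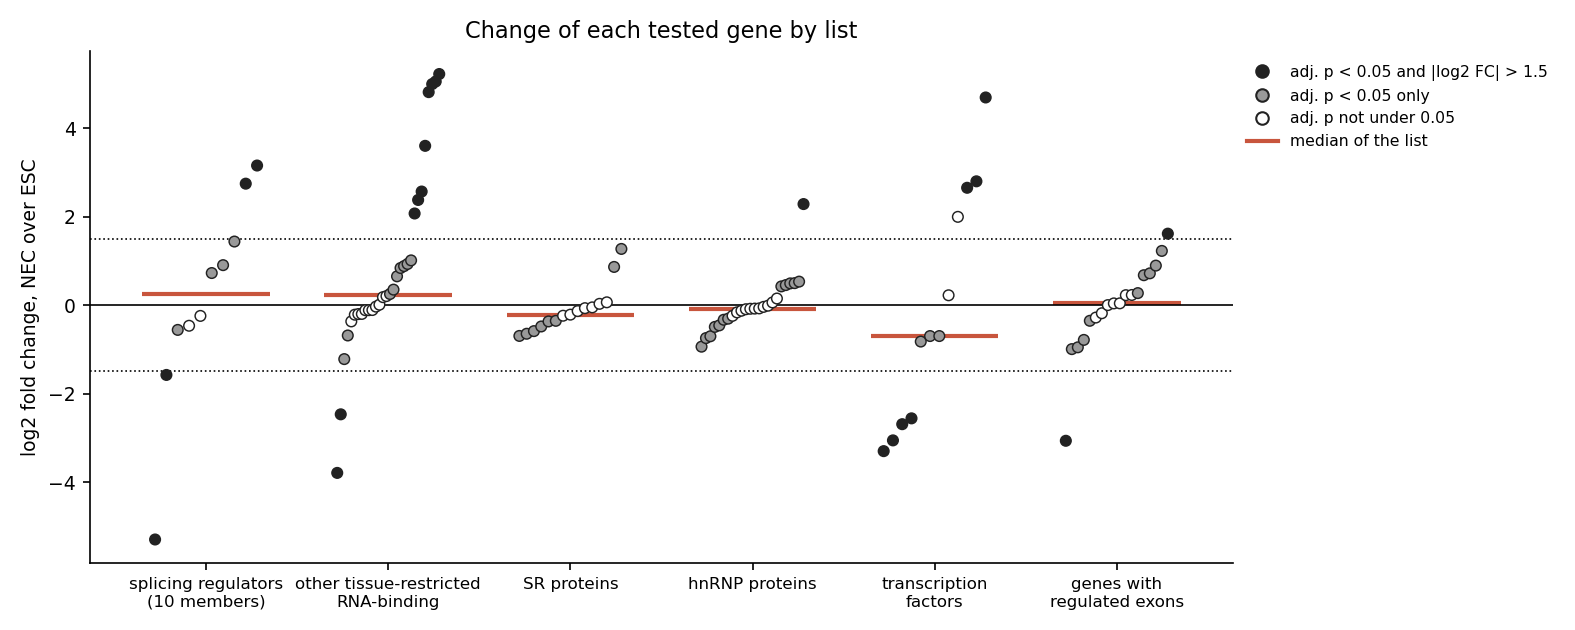
Log2 fold change from ESCs to NECs of each tested gene in 6 lists, ordered within each list, with the list median as a red line and the fold threshold of 1.5 dotted. Black points were called, grey points passed the adjusted p alone and open points did not. SR proteins all lie inside the dotted lines and 1 hnRNP protein outside. The 10 regulators, the other tissue-restricted regulators, the transcription factors and the genes with regulated exons all reach beyond the lines on both sides.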

How the data were processed

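The authors sequenced RNA from ESCs and NECs as single-end, non-directional libraries, trimmed and aligned the reads to GRCh37 with TopHat, and counted them per gene of the Ensembl set, ignoring strand. The deposited table holds these raw counts. For PCHi-C, the authors mapped read pairs to GRCh37 with HiCUP, removed duplicates and called pairs of HindIII fragments with CHiCAGO, per replicate and for both replicates merged. The deposited lists give a CHiCAGO score of at least 12 per pair and no read numbers, which leaves the depth of each call unknown.

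The quasi-likelihood test of edgeR 4.0.16 (R 4.3.3) was run after TMM scaling on the 17564 of 31017 genes that filterByExpr kept at a minimum count of 10, and p-values were adjusted by Benjamini-Hochberg over all of them. SE is the log2 fold change divided by the square root of F. The authors' DESeq2 analysis was repeated as an alternative with DESeq2 1.42.0. Levels per kilobase divide CPM by the union of annotated exons, from a GENCODE annotation newer than the Ensembl set behind the counts. Comparisons of levels between genes therefore depend on these lengths, from 4875 bp (ESRP1) to 20122 bp (PTBP2). Interaction lists and sequences were handled in Python 3.11.15 with pandas 2.3.3, numpy 2.4.6 and scipy 1.17.1, and figures with matplotlib 3.10.9. The procedure was tested on simulated data. The members and gene lists were chosen with earlier results of these data known. Named genes were all 10 members, up to 4 called genes with the largest change and up to 2 abundant uncalled genes per list, and per promoter the highest merged PIR and those replicated in 1 cell type alone. Genes named outside this rule are marked as such or are markers given beside a result. Replicates are labelled biological, and replicate counts differed by more than sampling noise (chi-square per degree of freedom of 16.6 and 20.0). Conventional Hi-C was not analysed here.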

Additional observations from a re-analysis of the deposited data

How the results depend on the processing

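All 10 regulators kept the direction of their log2 fold change in each of 10 alternatives (other size factors, DESeq2, other filters, a replicate block and each replicate left out), and 9 kept their side of the adjusted p threshold; SRRM4 lost it without ESC replicate 1. RBFOX1 varied most, from 2.07 to 3.75. Size factors of DESeq2 and library size moved the median of all genes by -0.02 and 0.06. With the replicate number as a block, 2 regulators were called higher and 2 lower, and 1987 and 1711 of all genes. The numbers are not known to pair the samples: deviations of same-numbered libraries correlated at 0.05. The block moved no count of calls by over 1.5 times.

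Without a fold threshold, 5529 genes were higher and 5209 lower (61.1% of all tested genes) instead of 1997 and 1700 (21.0%). Then 5 regulators were higher, and 19 other tissue-restricted regulators, 8 SR proteins, 13 hnRNP proteins and 11 genes with regulated exons were called. With at least 10 counts in every library, which tests fewer genes, 1211 genes were higher and 894 lower, and 6 other regulators were called. Leaving out a replicate gave 0 to 1 SR proteins (1 without ESC replicate 1) and 1 to 2 genes with regulated exons (1 without ESC replicate 2 or NEC replicate 1).

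At a score of at least 15, 1 PIR was left in ESCs and 2 in NECs with 0 shared, and the median span of promoter and PIRs was 224.3 and 66.9 kb instead of 393.1 and 510.0 kb. The spans at that score are those of ESRP2 in ESCs and NOVA2 in NECs, each the only promoter left, so they compare different genes. Counting PIRs within 10 kb as shared gave 11 of the ESC and 9 of the NEC PIRs. From single replicates, 0 to 2 PIRs were shared, and the span ranged from 479.3 to 1151 kb in ESCs (highest without replicate 1) and from 654.8 to 971.3 kb in NECs (highest without replicate 1). The cause of these changes was not tested.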

Other observations

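Member promoters were also reached from the baits of other genes, in 24 contacts onto 6 of the promoters. The NOVA2 fragment, which holds the CCDC61 start as well, received 14 of them. That from the PPP5C bait, 369.6 kb away, was called in all 4 replicates, at 19.7 and 25.4 in ESCs and 16.0 and 15.4 in NECs. The RBFOX2 fragment was contacted from the APOL1 bait in both ESC replicates (19.6 and 15.6) and NEC replicate 1 (12.4). Contacts onto RBFOX2 from the bait with the HMOX1 and MCM5 starts (12.9 in each NEC replicate) and onto SRRM4 from the CCDC60 bait (13.7 and 16.0) were called in both NEC replicates and no ESC replicate. The ESRP1 fragment was contacted from the bait with the CCNE2 start in both ESC replicates (12.4 and 14.1) and in NEC replicate 1 (15.2).

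Away from the bait's own chromosome, the SRRM4 bait contacted 1 fragment on chromosome 18 (chr18:59411355-59415013) in ESC replicate 2 (15.1) and NEC replicate 2 (12.3), although it was in neither merged list. The NOVA2 bait contacted 1 fragment on chromosome 5 (chr5:96954693-96958233) in NEC replicate 2 alone (13.5).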
